A study of Mus musculus with 19 samples.

Results

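The 1352 regions described here are CBFA2T2 peaks at gene ends that were called in cells carrying the histone mutant H3.3K27M and overlapped no CBFA2T2 peak called in cells carrying wild-type H3.3 (H3.3WT). They were chosen by 2 readings of the deposited peak lists: no base in common with any H3.3WT peak, and a summit no more than 1 kb away from an end of a protein-coding gene in the RefSeq annotation of the mouse build mm10. They are called K27M-only gene-end peaks below. Of the 8272 H3.3K27M peaks they made up 16.3% (15.6% to 17.2%, a 95% Wilson interval like those below), of the 2786 without an H3.3WT partner 48.5%, and of the 5338 at gene ends 25.3% (24.2% to 26.5%). The reverse set, H3.3WT peaks at gene ends without an H3.3K27M partner (WT-only), held 542 of 4548 peaks (11.9%).

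The peaks came from chromatin immunoprecipitation sequencing of NE-4C, a mouse neural stem cell line deficient in p53. In both genotypes H3f3a, which encodes H3.3, had been knocked out and an HA-tagged H3.3 was stably expressed, H3.3K27M in one and H3.3WT in the other, so all remaining differences between the lines, including any between expressing clones, go with the genotype. Another genotype, H3.3WT cells in which Cbfa2t2 had also been knocked out, and the other antibodies were not analysed here: 2 of the 19 listed samples were used, with 1 CBFA2T2 library for each genotype and 6920 peaks in the H3.3WT list. Without replicates no test between genotypes was possible, read depth is unknown, and every interval below covers counting error over peaks or genes only. A peak that is missing from the H3.3WT list was not called there, which does not show that CBFA2T2 was absent. Since the CBFA2T2 ChIP of the knockout cells was not used, signal that the antibody gives without its target was not measured at these peaks, most of which were weak. Peak lists carry no expression values, so the labelled cell type could not be checked.

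CBFA2T2 (MTGR1) belongs to the MTG or ETO family of corepressors, which do not bind DNA by themselves. They are brought to promoters by transcription factors and in turn recruit NCoR and histone deacetylases. H3.3K27M replaces the lysine that Polycomb repressive complex PRC2 methylates, is known from childhood diffuse midline glioma, and lowers H3K27 trimethylation across much of the genome. The other members of the family are RUNX1T1 (ETO, MTG8) and CBFA2T3 (MTG16).

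The promoters of 7 genes with a K27M-only gene-end peak are printed to show the sequence just before the starts at which the summits lay. Each is the 250 bases before the RefSeq start on GRCm38.p6, the assembly of mm10, written 5′ to 3′ on the gene's strand. Only genes with the summit from 250 bases before to 50 after the RefSeq start could be printed, which left out Nagpa and Guk1. Among those, Rmnd5b, Pelp1, Zfp174 and Inpp5b stand for the strongest peaks. Klf4, Acvr2a and Nes, chosen after their values were seen, stand for immediate early, BMP receptor and neural stem genes. Capitals mark a GC box (GGGCGG or its complement), the site of SP and KLF factors, and the core of an ETS site (CCGGAAG or its complement).
Rmnd5b, chr11:51635897-51636146, minus strand: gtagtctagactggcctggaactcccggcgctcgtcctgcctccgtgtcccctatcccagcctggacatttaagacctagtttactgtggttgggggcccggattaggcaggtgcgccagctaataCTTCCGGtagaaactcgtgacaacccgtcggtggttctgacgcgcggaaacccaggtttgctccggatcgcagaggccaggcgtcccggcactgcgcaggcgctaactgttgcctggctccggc
Pelp1, chr11:70410032-70410281, minus strand: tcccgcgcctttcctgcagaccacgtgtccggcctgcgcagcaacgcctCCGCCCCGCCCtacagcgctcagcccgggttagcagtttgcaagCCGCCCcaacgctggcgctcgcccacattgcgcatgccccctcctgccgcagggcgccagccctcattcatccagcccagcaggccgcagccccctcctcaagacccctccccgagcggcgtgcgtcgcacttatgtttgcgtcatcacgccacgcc
Zfp174, chr16:3846973-3847222, plus strand: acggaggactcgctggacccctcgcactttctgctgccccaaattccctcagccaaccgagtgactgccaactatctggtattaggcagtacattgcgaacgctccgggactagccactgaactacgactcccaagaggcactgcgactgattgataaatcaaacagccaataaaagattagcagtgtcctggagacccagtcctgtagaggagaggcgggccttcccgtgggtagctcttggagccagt
Inpp5b, chr4:124741600-124741849, plus strand: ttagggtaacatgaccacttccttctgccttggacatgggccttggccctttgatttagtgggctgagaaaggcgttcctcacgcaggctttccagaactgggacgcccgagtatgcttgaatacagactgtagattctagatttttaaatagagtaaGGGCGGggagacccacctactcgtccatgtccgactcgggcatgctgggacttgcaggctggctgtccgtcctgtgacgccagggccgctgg
Klf4, chr4:55532476-55532725, minus strand: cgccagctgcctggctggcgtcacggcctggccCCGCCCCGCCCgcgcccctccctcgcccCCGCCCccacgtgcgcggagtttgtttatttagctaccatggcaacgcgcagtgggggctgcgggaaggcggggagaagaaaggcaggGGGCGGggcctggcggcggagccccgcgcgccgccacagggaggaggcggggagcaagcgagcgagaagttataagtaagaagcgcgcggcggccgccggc
Acvr2a, chr2:48813859-48814108, plus strand: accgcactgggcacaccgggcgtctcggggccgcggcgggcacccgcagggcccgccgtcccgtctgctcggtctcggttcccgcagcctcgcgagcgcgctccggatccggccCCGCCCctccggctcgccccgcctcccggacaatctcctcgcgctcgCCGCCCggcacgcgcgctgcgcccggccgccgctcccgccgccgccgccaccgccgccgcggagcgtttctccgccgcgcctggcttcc
Nes, chr3:87970843-87971092, plus strand: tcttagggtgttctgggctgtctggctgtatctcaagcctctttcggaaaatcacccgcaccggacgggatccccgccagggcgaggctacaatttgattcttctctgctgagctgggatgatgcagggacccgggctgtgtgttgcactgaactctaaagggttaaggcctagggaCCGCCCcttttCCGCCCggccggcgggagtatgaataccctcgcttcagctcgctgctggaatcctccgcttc
Rmnd5b has 1 ETS core and no GC box, Pelp1 has 3 GC boxes, Inpp5b has 1 GC box, and Zfp174 has neither. The Klf4 promoter holds 4 GC boxes, and those of Acvr2a and Nes hold 2 each. The Acvr2a stretch is 82.0% G or C with 49 CpG dinucleotides, and that of Zfp174 is 54.8% G or C with 11. The summits lay 15 bp inside the gene at Rmnd5b, 11 bp inside at Pelp1 and 9 bp inside at Nes, all next to the RefSeq start.

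Most K27M-only gene-end peaks were weak calls. Their fold enrichment, a ratio that the authors' peak caller gives for the summit against its surroundings, had a median of 4.41 (quartiles 3.73 and 5.39, range 2.52 to 14.6). Shared H3.3K27M peaks at gene ends, those that overlapped an H3.3WT peak, had a median of 7.06, and WT-only gene-end peaks one of 4.62. The median −log10 q was 5.18 in the K27M-only set, against 16.1 in the shared set and 4.53 in the WT-only set. K27M-only peaks were 438.5 bp wide at the median, against 632.5 bp for shared ones. Because the rule requires that a peak was not called in the other list, these values describe the selection and were not tested.

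The proportion of gene-end peaks that lacked an H3.3WT partner fell with the strength of the call. It was 64.4% among H3.3K27M gene-end peaks with a −log10 q under 5, 38.8% between 5 and 10, and 13.5% between 10 and 20. At 20 and over it was 0.772%, or 13 of 1685 peaks. Of all K27M-only gene-end peaks, 635 had a −log10 q under 5, and 450 (33.3%) reached 5 fold.

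**Figure D1:**
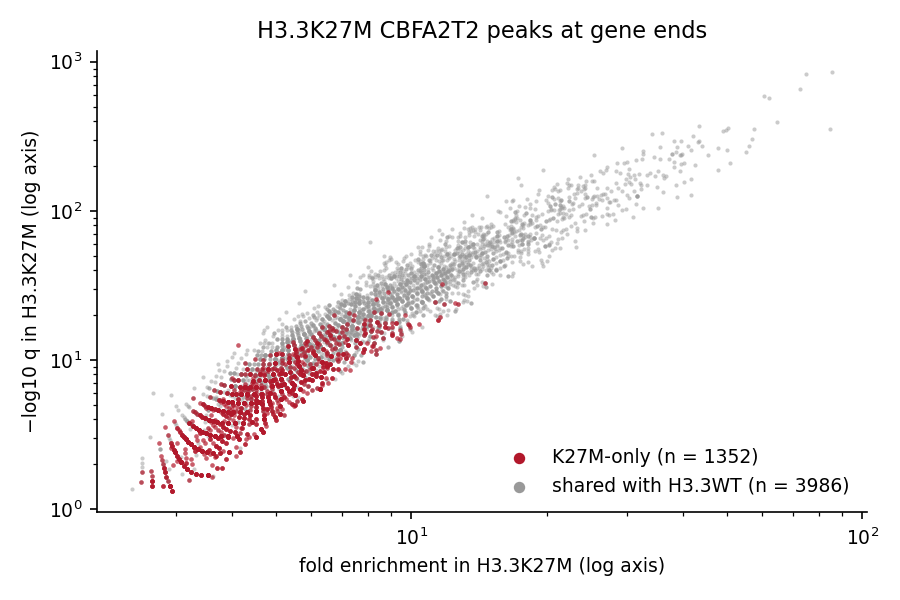
Fold enrichment (x, log axis) and −log10 q (y, log axis) of each H3.3K27M peak at a gene end, with the 1352 K27M-only peaks in red and the 3986 shared peaks in grey. Red points fill the weak corner, with a median of 4.41 fold against 7.06 fold for grey points, and reach at most 14.6 fold.

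The strongest K27M-only gene-end peak lay at Nagpa, the enzyme that uncovers the mannose 6-phosphate tag of lysosomal enzymes (chr16:5203622-5204307, 14.6 fold, −log10 q 32.9). Its summit was 72 bp inside the gene from the annotated start, and the nearest H3.3WT peak was 153563 bp away. At Guk1, guanylate kinase, the peak reached 11.7 fold with a −log10 q of 32.3 (chr11:59191563-59192119), and the nearest H3.3WT peak, 10205 bp away, had 4.61 fold. Rmnd5b, a subunit of the GID/CTLH ubiquitin ligase, had 8.88 fold (−log10 q 28.8), and Pelp1, a scaffold protein of ribosome biogenesis and nuclear receptor signalling, had 8.33 fold (25.8). These peaks are well above the median of their set, yet 84.5% of all H3.3K27M peaks had a −log10 q no higher than that of Nagpa, so the strongest K27M-only gene-end call was not at the top of the full list.

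Zinc finger genes recur among the leaders. Zfp174 reached 12.5 fold, Zfp507 11.6 fold and Zfp689 11.5 fold, each with its summit within 100 bp of the start. Other leading peaks lay at Frmpd1 (12.7 fold), Inpp5b, an inositol polyphosphate 5-phosphatase (11.8 fold), Tbc1d8b, a Rab GTPase-activating protein on chromosome X (11.5 fold), and Epg5, which tethers autophagosomes to lysosomes (11.3 fold). Fam174a reached 10.4 fold, Abhd10, a mitochondrial hydrolase, 9.90 fold, and Fam151b 9.86 fold. Tmem216, a protein of the ciliary transition zone, had 8.92 fold, Gnl2, a nucleolar GTPase, 8.57 fold, and Morn4 8.28 fold. Of these genes the closest H3.3WT peak lay at Tmem216, 20752 bp away, and the farthest at Fam174a, 1424675 bp away.

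One leading peak marked a gene of CBFA2T2's own family. At Runx1t1 (ETO) a K27M-only peak of 7.29 fold and −log10 q 20.6 spanned 1111 bp (chr4:13742674-13743784). The nearest H3.3WT peak, 6762 bp away, had 4.43 fold. Cbfa2t2 and Cbfa2t3 had no peak of either list at an annotated end, nor did H3f3a, H3f3b and Kdm6a. The H3K27 demethylase gene Kdm6b and the methyltransferase gene Ezh2 had shared peaks instead. At Kdm6b the H3.3K27M peak had 4.18 fold and the H3.3WT peak 4.58 fold. At Ezh2 the H3.3K27M peak stood at 4.28 fold and its H3.3WT partner at 3.25 fold.

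The widest K27M-only gene-end peaks were not the strongest. That at Bptf, the large subunit of the NURF remodeller, was 1533 bp wide at 5.34 fold, that at Rbpms2 1528 bp at 4.16 fold, and that at Kcmf1, a ubiquitin ligase, 1522 bp at 5.14 fold.

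At the limits of the rule, values on either side were alike. Summits just inside the 1 kb window lay 1000 bp from the end of Gpsm1 (4.05 fold), 997 bp from that of Shd (4.97 fold) and 996 bp from that of Hes1 (4.199 fold), and those just outside at 1007, 1009 and 1036 bp (3.42, 4.81 and 3.83 fold). The smallest gaps to an H3.3WT peak were 7 bp at Eya4 (5.05 fold), 10 bp at Slc38a2 (4.23 fold) and 18 bp at Srebf2 (3.98 fold). The smallest overlaps that kept a peak out were 16 bp at Supt3 (3.72 fold), 18 bp at Sf1 (4.64 fold) and 19 bp at Slc20a1 (3.02 fold). The lowest −log10 q in the set was 1.31, at Brpf3, Tuba1a and Tusc3, each with 2.94 fold.

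Few K27M-only gene-end peaks sat beside an H3.3WT peak. The median gap was 54400.5 bp, with quartiles of 20125 and 138157 bp and a largest value of 7934710 bp. An H3.3WT peak edge lay within 1 kb of 52 peaks (3.85%) and within 5 kb of 119 (8.80%). For 22 of those 52, the nearby H3.3WT peak had no H3.3K27M partner either.

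**Figure D2:**
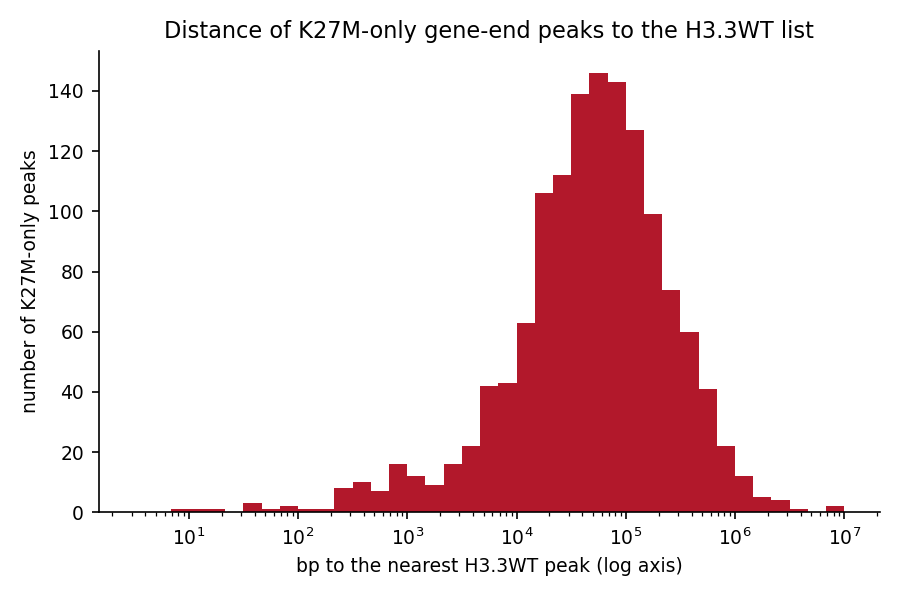
Number of K27M-only gene-end peaks (y) by the distance in bp to the nearest H3.3WT peak (x, log axis). The median is 54400.5 bp, 905 of 1352 peaks are within 100 kb, and 52 are within 1 kb.

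The K27M-only gene-end peaks marked 1494 of 21887 protein-coding genes, 6.83%. No H3.3WT peak lay at either end of 1384 of these genes (92.6%), while 110 had one. WT-only peaks marked 611 genes (2.79%). Of the K27M-only peaks, 1184 (87.6%) lay at the end of a single gene and 167 (12.4%) at the ends of 2 genes, and 1 peak lay within the window of Alg3, Eef1akmt4 and Eef1akmt4-ece2, which overlap in the annotation. Among shared gene-end peaks 75.6% lay at a single gene and 23.9% at 2 genes. The marked genes had a median length of 25.5 kb, against 18.7 kb for genes with a shared peak and 17.2 kb for all protein-coding genes. An end of a long noncoding RNA gene lay within the same window of 163 K27M-only peaks (12.1%) and 455 shared ones (11.4%).

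Gene starts, not gene finishes, held most of the summits. Of 1087 K27M-only peaks whose genes all had a known strand, 1028 (94.6%) lay at a start and 59 (5.43%, interval 4.23% to 6.94%) at a finish alone. The finish-only proportion was 1.43% in shared peaks (46 of 3225, 1.07% to 1.90%) and 4.42% in WT-only peaks (19 of 430, 2.85% to 6.80%). Strong finish peaks lay at Barhl1, a homeobox gene of neurons (7.89 fold), Trh, thyrotropin-releasing hormone (7.88 fold), Sparc, a secreted matrix glycoprotein (8.20 fold), and between Ftl1, ferritin light chain, and Gys1, glycogen synthase (8.52 fold). Another RefSeq protein-coding start was within 1 kb of 1 of the 59.

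Counted by gene, a K27M-only peak at the finish was more frequent where the gene also had an H3.3WT peak at an end. Among 84 such genes with a strand the K27M-only peak was at the finish in 46 (54.8%, 44.1% to 65.0%). The value was 49 of 1106 for genes without an H3.3WT end peak (4.43%, 3.37% to 5.81%). These counts are not limited to the 59 finish-only peaks, since a peak at one gene's finish can lie at a neighbour's start. The rule bears on this, since an H3.3WT peak over the start leaves no room for a K27M-only peak there. Of all genes with a K27M-only gene-end peak, 87 had a shared peak at an end as well and 25 a WT-only peak.

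At gene starts, the K27M-only summits were shifted into the gene. Their median position was 92 bp downstream of the start, against 17 bp for shared peaks and 67 bp for WT-only peaks. Of the K27M-only summits 72.4% were downstream (69.6% to 75.02%), against 56.3% of shared summits (54.5% to 58.0%) and 64.7% of WT-only summits (60.0% to 69.2%). Summits over 200 bp downstream made up 32.8% of K27M-only peaks, 15.1% of shared peaks and 25.8% of WT-only peaks. Conversely, 39.5% of K27M-only summits, 56.9% of shared ones and 42.8% of WT-only ones lay within 100 bp of the start. Weak peaks differ in position from strong ones in the shared set too. With both sets held to a −log10 q of at most 7.81, 72.9% of K27M-only and 63.7% of shared summits were downstream, with medians of 112 and 50 bp. The part that the strength of the call plays in the remaining gap was not tested, since K27M-only calls were still weaker within that range, with a median −log10 q of 4.37 against 5.35.

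**Figure D3:**
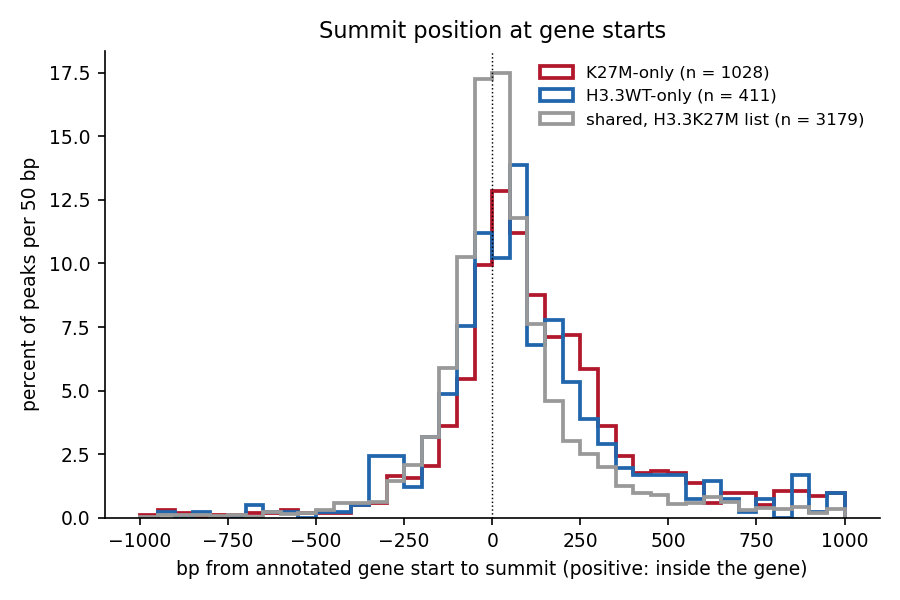
Percent of peaks per 50 bp (y) by the position of the summit from the annotated gene start (x, bp, positive inside the gene) for K27M-only (red, n = 1028), WT-only (blue, n = 411) and shared (grey, n = 3179) peaks. Grey is tallest at the start, while red and blue extend further into the gene, with medians of 92 bp for red, 67 bp for blue and 17 bp for grey.

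Paired starts, where the starts of 2 genes fall in the window of one summit, stood at 7.30% among K27M-only peaks (5.86% to 9.05%) and among shared peaks at 18.97% (17.6% to 20.4%). WT-only peaks stood at 8.52%. Within the weak range the proportions were 7.17% of K27M-only and 13.0% of shared peaks.

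Sequence matches were counted in the RefSeq promoter windows, 250 bases before to 50 after each start, that held the summit. These were 498 of the K27M-only peaks (36.8%), 2222 of the shared (55.7%) and 205 of the WT-only peaks (37.8%), beside 21238 windows of all protein-coding promoters. A match on either strand is a description of the letters and not a bound site. The windows under K27M-only summits were rich in G and C, with a median of 64.7% against 60.7% for shared, 63.3% for WT-only and 56.3% for all windows. The observed over expected ratio of CpG was 0.823 in K27M-only, 0.857 in shared and 0.834 in WT-only windows, against 0.567 in all windows.

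K27M-only and shared windows differed most, in percentage points, in the ETS core. CCGGAAG was found in 20.9% of K27M-only windows (17.5% to 24.7%), 35.2% of shared windows (33.3% to 37.2%), 25.4% of WT-only windows (19.9% to 31.7%) and 11.6% of all windows. The GC box, GGGCGG, went the other way, at 72.9% in K27M-only windows (68.8% to 76.6%), 65.4% in shared windows (63.4% to 67.4%), 73.2% in WT-only windows and 46.2% in all windows. Within the weak range the ETS core stood in 17.2% of K27M-only (13.6% to 21.55%) and 27.3% of shared windows (23.1% to 32.0%). The GC box stood in 77.3% of K27M-only (72.5% to 81.4%) and 74.0% of shared windows (69.4% to 78.2%), with intervals that overlap. The G and C content moves with the GC box, and its part in this was not tested.

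The other motifs are given with all windows beside them. The full cyclic AMP response element, TGACGTCA, the site of CREB and ATF factors, was in 5.42% of K27M-only windows, 6.12% of shared, 2.44% of WT-only and 2.24% of all windows. The YY1 site AAGATGGC was in 5.02% of K27M-only, 9.05% of shared, 3.42% of WT-only and 3.05% of all windows, and the NRF1 site GCGCATGCG in 5.02% of K27M-only, 5.36% of shared and 2.35% of all windows. The CCAAT box of NF-Y was in 35.9% of K27M-only (31.9% to 40.2%), 39.8% of shared, 48.8% of WT-only (42.0% to 55.6%) and 38.2% of all windows. The AP-1 site TGANTCA was in 2.81% of K27M-only, 3.96% of shared, 2.93% of WT-only and 6.99% of all windows. TATAAA was in 4.22% of K27M-only, 4.86% of shared, 4.88% of WT-only and 12.6% of all windows. For both motifs all 3 peak sets lay below all windows. The RUNX core TGTGGT was in 10.2% of K27M-only, 12.8% of shared and 15.0% of all windows, and the E-box CAGCTG, a site of basic helix-loop-helix proteins that partner MTG corepressors, in 12.05%, 11.8% and 15.6% of these. A shorter core, TGACG (the "short CRE" of the plot), which every full cyclic AMP element also holds, was in 37.8% of K27M-only, 45.0% of shared, 31.2% of WT-only and 23.6% of all windows. The MYC-type E-box CACGTG was in 12.4% of K27M-only, 13.2% of shared and 7.83% of all windows, and the ZEB-type E-box CAGGTG in 16.7%, 13.1% and 19.7% of these. GGCGCC, a GC element of BMP targets, was in 27.7% of K27M-only, 24.6% of shared and 15.3% of all windows. The SMAD palindrome GTCTAGAC was in 2 of 498 K27M-only windows (0.402%), 0.225% of shared and 0.226% of all windows.

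**Figure D4:**
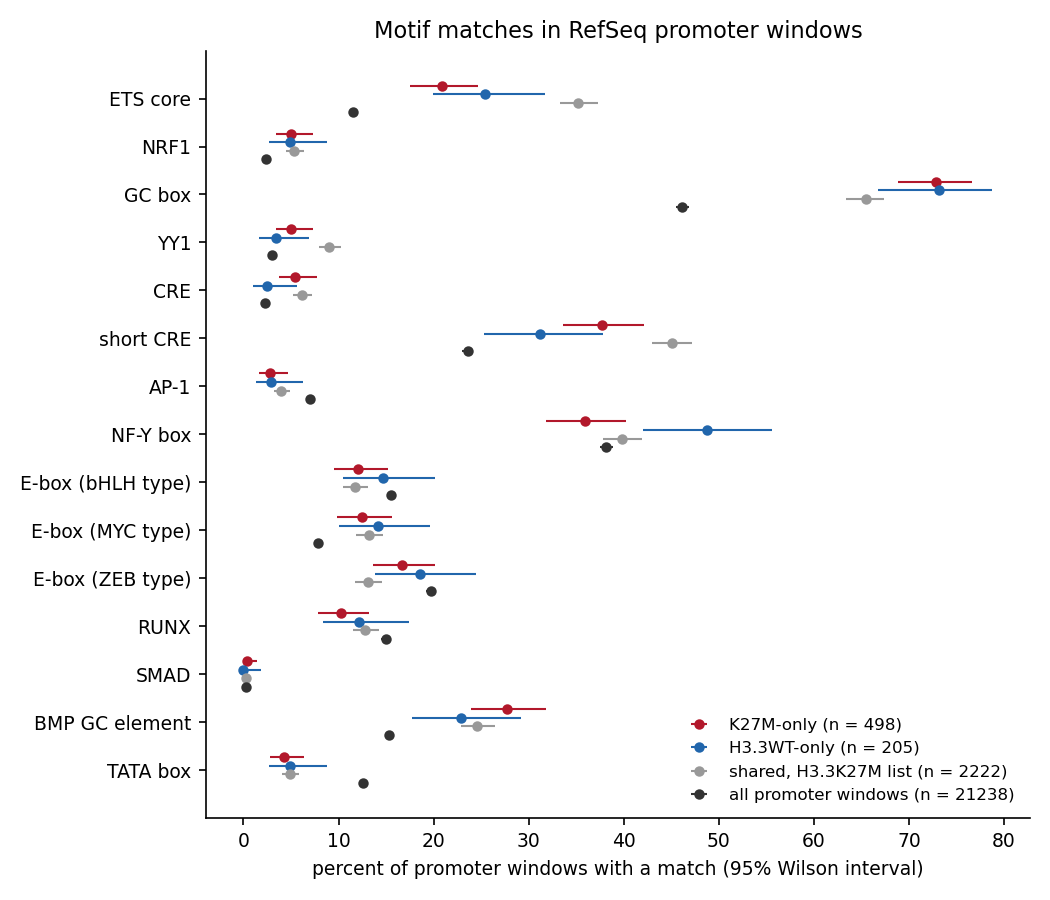
Percent of RefSeq promoter windows with at least 1 match to each motif (x), with 95% Wilson intervals, for windows holding a K27M-only (red), WT-only (blue) or shared (grey) summit and for all promoter windows (black). The ETS core is at 20.9% in red and 35.2% in grey, and the GC box at 72.9% in red and 65.4% in grey.

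The gene lists differed in how many members had a K27M-only gene-end peak. Of 25 lists 19 had a larger proportion than the 6.83% of all protein-coding genes, with the whole interval above that value in 13 and below it in 1. The lists were chosen with earlier results of these data known, so the intervals describe these differences and do not test them. All genes include many with no CBFA2T2 peak in either library, such as the olfactory receptor genes, and their part in these differences was not tested. Of the 6256 genes with any H3.3K27M end peak, 1494 had a K27M-only one. On that footing the Polycomb list below had 6 of 25, the Zfp list 54 of 196, the TCA list 8 of 28 and the DNA repair list 6 of 30. The autophagy list had 5 of 29 and the mTORC1 list 3 of 23. The ATF4 list had 9 of 24, the BMP and TGF-beta list 9 of 12 and the immediate early list 13 of 18. The proportions below are over all genes of a list, including those with no peak in either library. The number of genes with any H3.3WT end peak, 5427 of 21887 over all genes (24.8%), is given beside each list.

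The immediate early and stress response list, genes switched on within minutes of growth factor or stress signals, had the largest proportion in the lists as deposited. K27M-only peaks marked 13 of its 40 genes (32.5%, 20.1% to 48.0%), 12 of them without an H3.3WT peak at an end, while 8 genes had any H3.3WT end peak and 3 a WT-only peak. The AP-1 subunit gene Fosl2 had 7.42 fold with its summit 970 bp before the start. The orphan nuclear receptor gene Nr4a2 had 6.51 fold, and Gadd45g, a regulator of stress kinases, 5.65 fold. Junb, at 5.95 fold, and Jund, at 4.08 fold, carried their peaks at the finish, that of Jund also within 1 kb of an end of Iqcn. The MAP kinase phosphatase genes Dusp5 (4.33 fold), Dusp4 (4.60 fold) and Dusp6 (4.72 fold), which switch off ERK signalling, were all marked, as were Fosb (4.60 fold), Btg2 (4.25 fold), Klf4 (3.44 fold), Ier5l (3.67 fold) and Ier2 (2.94 fold). At 4.60 fold, the median of these 13 is close to that of the whole set. H3.3WT peaks lay 1007 bp from the Jund peak, 1217 bp from that of Dusp6, 1569 bp from Ier5l and 4468 bp from Ier2. With no H3.3WT peak allowed within 5 kb, 9 of the 40 were marked (22.5%), against 6.19% of all genes. Limited to peaks of at least 5 fold in both lists, 5 of the 40 were marked (12.5%), against 4.35% of all genes. The ATF4 list below then led with 8 of 31 (25.8%). Of its K27M-only peaks, those at Trib3, Sars and Ddit4 reach 5 fold. The other genes of these 8 were counted because H3.3WT partners under 5 fold dropped out. The ATF4 list led or was level first in 5 of the 10 alternatives to the peak and gene-end criteria. With no H3.3WT peak within 5 kb it was level with the glycolysis list, each at 8 of 31.

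In the BMP and TGF-beta list, 9 of 36 genes (25%, 13.7% to 41.1%) had a K27M-only peak, none of the 9 had an H3.3WT end peak, and 3 genes of the list had one. Marked genes spanned the pathway. The receptors were Acvr2a (4.62 fold), Acvr2b (3.43 fold) and Bmpr2 (2.92 fold), and the signal transducers were Smad4, the partner common to both branches (7.04 fold), and Smad2 (3.67 fold). The inhibitors were Smad6 (4.03 fold), the Smad repressor Ski (4.16 fold) and the ubiquitin ligase Smurf1 (4.90 fold). Id1, a target of BMP signalling, had 5.75 fold, with an H3.3WT peak 1106 bp away.

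In the Wnt list, 6 of 31 genes were marked (19.4%), again none with an H3.3WT end peak, although 8 other genes of the list had one. They were the receptor gene Fzd2 (6.34 fold), Dvl3 (6.03 fold), which relays its signal, the coactivator gene Bcl9 (5.43 fold), the destruction complex genes Gsk3b (5.12 fold) and Apc (2.91 fold), and Znrf3 (3.499 fold), which removes receptors from the surface. In the Notch list, where 10 genes had an H3.3WT end peak, 2 of 30 genes were marked (6.67%), the effector Hes1, named above, and Numbl (4.201 fold).

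The ATF4 amino acid response list had 9 of 31 marked genes (29.0%, 16.1% to 46.6%) and 19 with an H3.3WT end peak, 17 of the 31 having a shared peak. At 5 genes the K27M-only peak was at the start. These were Trib3, a pseudokinase (5.73 fold), Sesn2 (4.05 fold), the transcription factor gene Cebpb (4.27 fold), Asns, asparagine synthetase (4.10 fold), and Vldlr (3.796 fold). At the other 4 it was at the finish. Sars, seryl-tRNA synthetase, had 5.56 fold, and Ddit4, an inhibitor of mTORC1, 6.37 fold. Shmt2, mitochondrial serine hydroxymethyltransferase, had 4.52 fold, and Slc38a2, an amino acid transporter, 4.23 fold. The Shmt2 peak was also within 1 kb of an end of Ndufa4l2. Sars, Shmt2 and Slc38a2 had an H3.3WT end peak as well, while 6 of the 9 marked genes had none.

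Metabolic lists had from 1 to 8 marked genes. Of the glycolysis and pentose phosphate genes 8 of 31 (25.8%) were marked, among them Rpe (4.62 fold), Pgls (4.39 fold), the glucose transporter gene Slc2a3 (5.34 fold) and the lactate transporter genes Slc16a1 (3.38 fold) and Slc16a3 (3.296 fold), with Pgk1 at 3.67 fold, Eno1 at 2.91 fold and Pkm, at its finish, at 3.66 fold. The Pkm peak was also within 1 kb of an end of Gramd2. The glycolysis list had 12 genes with an H3.3WT end peak, 4 of them with a WT-only peak. Of the TCA cycle and alpha-ketoglutarate genes 8 of 41 (19.5%) were marked and 21 had an H3.3WT end peak. The median −log10 q of these 8 was 2.62, so they were weak calls. The branched-chain aminotransferase genes Bcat1 (5.003 fold) and Bcat2 (5.22 fold) led, and Glud1, glutamate dehydrogenase, and Glul, glutamine synthetase, both had 3.296 fold. Bcat2 also had an H3.3WT end peak, which was stronger, at 14.8 fold. Citrate synthase, Cs, had 3.05 fold, and Pck2 and Pdk1 2.86 and 2.66 fold, close to the bottom of the set. In the oxidative phosphorylation list, where 33 of 39 genes had an H3.3WT end peak, the sole K27M-only peak was at the finish of Atp5b (4.44 fold). That peak was also within 1 kb of an end of Baz2a.

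The p53 target and apoptosis list had 9 of 34 genes marked (26.5%), in cells deficient in p53, and 6 with an H3.3WT end peak. At a −log10 q of at least 5 in both lists it had 2 (5.88%, against 5.57% of all genes), and at 5 fold or more 1 (2.94%, below the 4.35% of all genes). The 9 were Mdm2, the p53 ubiquitin ligase (4.53 fold, with an H3.3WT peak 48 bp away), Bcl2 (4.72 fold), Sesn2 and Btg2 named above, Bid (3.33 fold), Apaf1 (3.52 fold), Trp53inp1 (2.995 fold), Casp8 (3.62 fold) and Sfn, at its finish (2.88 fold). Their median −log10 q was 3.49, so this list rests on weaker calls than most. In the cell cycle list 9 of 45 genes were marked, 7 of them without an H3.3WT end peak, and 18 had an H3.3WT end peak. Of the 9, 4 encode E2F factors: E2f4 (5.69 fold), E2f1 (4.28 fold), E2f3 (5.51 fold) and E2f8 (3.93 fold). E2f4 also had an H3.3WT end peak of 5.37 fold, and its K27M-only peak was within 1 kb of an end of Exoc3l too. An H3.3WT peak lay 750 bp from the E2f3 peak. The replication helicase gene Mcm2 had 7.14 fold, Aurkb, a mitotic kinase gene, 5.15 fold, and Cdk1 3.71 fold.

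Of the neural stem and progenitor genes 7 of 30 were marked (23.3%, 11.8% to 40.9%), and none of the 7 had an H3.3WT end peak, as 5 other genes of the list did. They were Fgfr1, a fibroblast growth factor receptor (5.82 fold), Id1, Nes, which encodes the intermediate filament nestin (5.24 fold), Hes1, Vim, vimentin (3.82 fold), Cdh2, N-cadherin (4.70 fold), and Msi2, an RNA-binding protein (3.71 fold). H3.3WT peaks lay 2785 bp from the Nes peak and 3372 bp from the Fgfr1 peak. In the neuron, astrocyte and oligodendrocyte list 3 of 38 genes were marked (7.9%), close to the value for all genes, and 2 had an H3.3WT end peak. The marked genes were Insm1 (6.25 fold), Nfib (4.53 fold) and Glul. Among 55 developmental regulators typical of Polycomb domains 3 were marked (5.5%), also close to the value for all genes. They were Hoxb9 (5.49 fold), Six2 (4.33 fold) and Dlx2 (4.14 fold), and 1 of the 55 had an H3.3WT end peak.

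Among chromatin genes, 6 of 37 Polycomb and H3K27 methylation genes were marked (16.2%, 7.65% to 31.1%), and 19 had an H3.3WT end peak. Among the marked ones were genes for members of PRC1, the complex that ubiquitinates H2A: Pcgf6 (6.11 fold), Yaf2 (5.57 fold), Rybp (4.33 fold) and Cbx2 (3.56 fold). Epop, which associates with PRC2, had 4.64 fold. In the list of MTG family and partner genes 4 of 30 were marked (13.3%) and 9 had an H3.3WT end peak. Runx1t1 was joined by the repressor gene Bcl6 (5.15 fold), the corepressor gene Ncor1 (4.09 fold) and the deacetylase gene Hdac1, whose 2.52 fold is the lowest of the whole set. Among 14 histone H3.3 genes and chaperones, 3 were marked (21.4%, 7.57% to 47.6%) and 6 had an H3.3WT end peak. None stayed marked at a −log10 q of at least 5 in both lists, and 1 of 14 was marked at 5 fold or more. The marked genes were Atrx (4.17 fold) and the CAF-1 subunit genes Chaf1a (3.44 fold) and Chaf1b (4.53 fold). CAF-1 deposits the replication-coupled H3 and not H3.3.

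Zfp zinc finger genes were the largest group, with 54 of 397 marked (13.6%, 10.6% to 17.3%), 51 of them without an H3.3WT end peak. Of the 397 genes 172 had an H3.3WT end peak, 27 a WT-only one. Beside the leaders, Zfp282 had 8.76 fold and Zfp560 9.05 fold. Of the solute carrier genes 27 of 375 were marked (7.20%, 4.99% to 10.3%), close to the value for all genes, and 67 had an H3.3WT end peak. They were led by the zinc transporter gene Slc30a1 (6.79 fold) and the sodium/proton exchanger gene Slc9a9 (8.18 fold). Of the TRIM and RING finger genes 17 of 151 were marked (11.3%), beside 41 with an H3.3WT end peak. They included Rnf139 (8.11 fold), Rnf170 (7.16 fold) and Rnf115 (5.51 fold). In the autophagy and lysosome list 5 of 41 were marked (12.2%, 5.32% to 25.5%) and 26 had an H3.3WT end peak. Gabarapl2 (4.00 fold), Wipi2 (3.78 fold) and Atg10 (4.09 fold) were marked beside Nagpa and Epg5. In the DNA repair list 6 of 46 were marked (13.0%, 6.12% to 25.7%) and 28 had an H3.3WT end peak. The marked ones included 3 genes of nucleotide excision repair, Ercc3 (9.28 fold), Ercc2 (7.24 fold) and Ercc5 (4.14 fold). In the mTORC1 and insulin list 3 of 37 were marked (8.11%, 2.80% to 21.3%), close to the value for all genes, and 24 had an H3.3WT end peak. The marked genes were Rictor (5.43 fold), Mlst8 (4.53 fold) and Rragd (4.19 fold).

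Ribosomal protein genes were mostly marked in both libraries. Of 84 genes 76 had a shared peak and 76 an H3.3WT end peak, and 5 (5.95%) had a K27M-only peak in addition to an H3.3WT end peak, among them Rpl10 (5.51 fold), Rpsa (5.12 fold) and Rpl13 (4.16 fold). These 3, the ones with a known strand, carried it at the finish, 2186 to 4637 bp from the nearest H3.3WT peak. The Rpl10 peak was also within 1 kb of an end of Dnase1l1. No K27M-only gene-end peak lay at any of 1110 olfactory receptor genes (interval up to 0.345%) or 30 markers of other tissues, and no H3.3WT end peak did either.

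**Figure D5:**
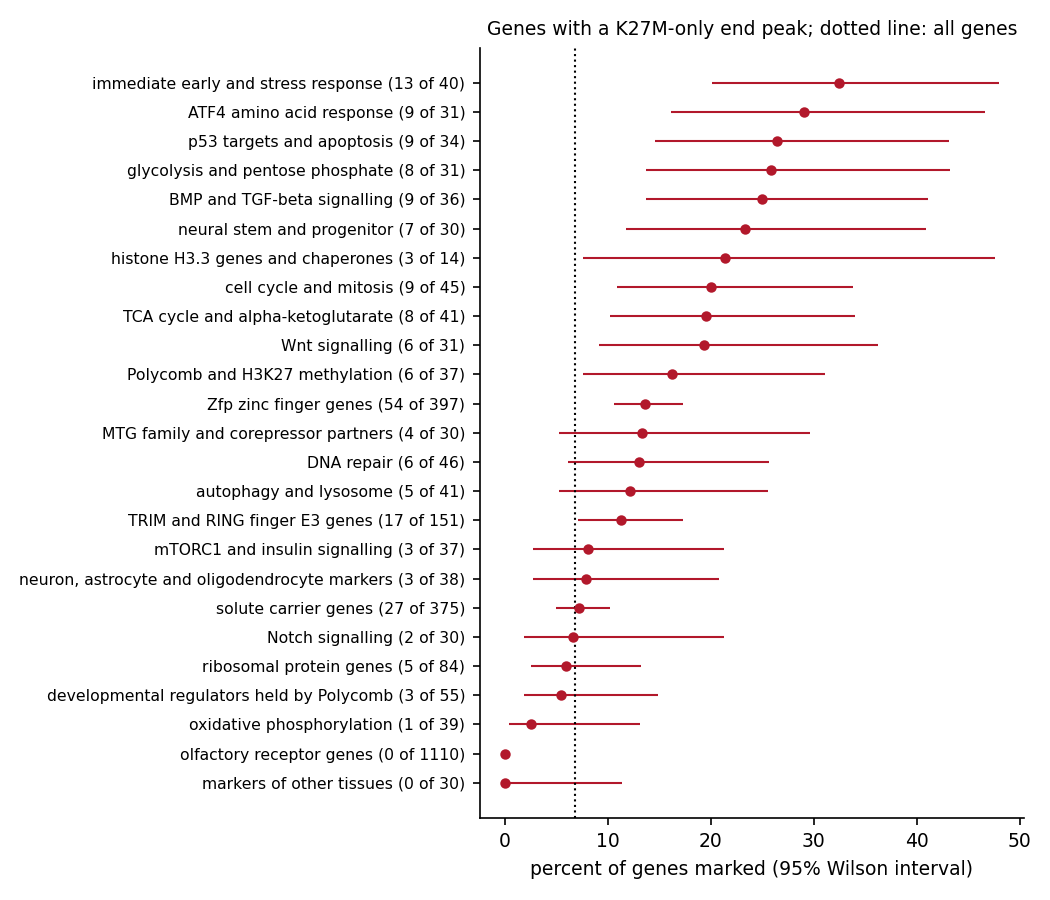
Percent of the genes of each list with a K27M-only gene-end peak (x), with 95% Wilson intervals, and the 6.83% of all protein-coding genes as a dotted line. The immediate early list is at 32.5% and the ATF4 list, first or level first in 5 of 10 alternatives, at 29.0%. The oxidative phosphorylation list (1 of 39 genes) and both lists without a marked gene lie at the bottom.

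The peaks were spread over the genome. They made up 19.6% of the H3.3K27M gene-end peaks on chromosome 15 and 31.6% on chromosome 1, the lowest and highest autosomes, and 27.8% on chromosome X.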

How the data were processed

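CBFA2T2 ChIP-seq peak lists of H3.3K27M and H3.3WT cells were used, 1 library per genotype, grouped by the genotype and antibody in the labels. The submitters' processing notes name Trim Galore, MACS2 and mm10. Their versions, the aligner and how duplicates were treated are not given in the sources used here. For both lists, each peak carries the authors' fold enrichment (a ratio over local background), −log10 p and −log10 q, used as deposited to describe and rank peaks within a list. The deposited score is the same −log10 q on a scale 10 times larger and was not used. Depth is unknown, and a deeper library yields more weak peaks.

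Gene ends came from RefSeq GRCm38.p6. Strand and promoter sequence came from the RefSeq promoter table, which gives a strand for 17492 of the 21887 protein-coding genes (79.9%); promoters of chromosome 18 were not used here. The start in that table can differ from the annotated gene boundary. Of the listed symbols 1 was not matched. Shares carry 95% Wilson intervals (SciPy 1.17.1, pandas 2.3.3, Python 3.11.15), and the calculations were tested on simulated peaks.

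Named genes were those of the 12 highest K27M-only peaks by −log10 q and by fold, up to 5 per gene list by −log10 q, Runx1t1, Cbfa2t2, Cbfa2t3, H3f3a, H3f3b, Kdm6a, Kdm6b and Ezh2, the 3 peaks on each side of each limit, the 3 widest peaks and the peak with the most gene ends. A few genes picked this way are not reported here. Further list members and the finish peaks were named after their values were seen. The regions, lists and motifs were chosen with earlier results of these data known. Alternatives were stricter peaks, equal peak numbers, other overlaps and windows, and removal of repeat-like peaks.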

Additional observations from a re-analysis of the deposited data

How the results depend on the processing

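No paired analysis was possible because each genotype had 1 library. Peaks of at least 5 fold in both lists gave 825 K27M-only gene-end peaks at 953 genes, more than the 450 of the set that reach 5 fold, because weaker H3.3WT partners also drop out. With a −log10 q of at least 5 in both lists there were 1077, although 635 of the 1352 lie under that limit. Weaker H3.3WT partners drop out there too. Equal peak numbers from both lists, the highest by −log10 q, gave 881 peaks at 982 genes. Under the other settings both counts stayed within 1.5 times.

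The ETS core share was 25.9% of windows at a −log10 q of at least 5 and 27.3% at 5 fold or more, against 20.9%. The GC box share was 66.3% at 5 fold or more. These limits apply to both lists, so their windows also hold H3.3K27M peaks that overlap a weaker H3.3WT peak. They are therefore not the stronger part of the set alone. In K27M-only peaks of low −log10 q, a restriction chosen after seeing the data, the ETS core was at 17.2%, the GC box at 77.3% and the cyclic AMP element at 3.21%. Summits downstream of the start made up 68.0% at 5 fold or more and 69.3% if a peak counts as shared only when at least 50% covered.

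The immediate early list fell to 5 genes at 5 fold or more and to 9 with no H3.3WT peak within 5 kb. The ATF4 list had the largest proportion in 5 of 10 settings. At a −log10 q of at least 5 in both lists it had 9 of 31 genes, some of them counted because weaker H3.3WT partners dropped out. It was level with the glycolysis list in the setting with no H3.3WT peak within 5 kb. The BMP and TGF-beta list held 5 at a −log10 q of at least 5, 3 at 5 fold or more and 4 with a 500 bp window. The p53 list held 2 at that −log10 q, 1 at 5 fold or more and 3 with equal peak numbers, and the glycolysis list 5, 2 and 4 in the same settings. Equal peak numbers left 5 of 31 ATF4 genes (16.1%) and 3 of 41 TCA genes (7.32%). The proportion of all genes moved as well, from 6.83% to 5.57% at a −log10 q of at least 5. It was 4.35% at 5 fold or more, 4.49% with equal peak numbers and 5.74% with a 500 bp window. With 50% cover it was 8.21%, with a 3 kb window 8.62%, and with no H3.3WT peak within 5 kb 6.19%. The neural stem list held 4 genes at 5 fold or more and 4 with no H3.3WT peak within 5 kb. The ribosomal list held 11 when sharing required 50% cover, 9 with a 3 kb window, and 0 with a 500 bp window or no H3.3WT peak within 5 kb. Of 240 values for lists other than the immediate early one, 204 stayed within 1.5 times, 28 were lower and 8 higher. Removing 22 repeat-like peaks removed 0 of the set and left every list unchanged. The 204 include the values of that setting. They also include those of the olfactory receptor and other-tissue lists, at 0 in every setting. The causes were not tested.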
